A study of Mus musculus with 1115 samples.

Results

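The kinesin genes described here were all genes of the count table whose symbol begins with Kif or Kifc followed by a digit and that had a read in at least 5 cells, 39 of 16839 genes. They were sorted by known role into 13 mitotic kinesins, 15 transport kinesins and 11 others. Each of the 1115 samples was a single cell from the cerebral cortex of a C57BL/6 mouse embryo at embryonic day 13.5, sequenced with a modified Smart-seq2 protocol, which reads full-length polyadenylated RNA. All embryos had received by in utero electroporation a reporter plasmid, genotype CAG-mRFP;Hes5p-GFP, in which the broadly active CAG promoter makes red mRFP and a promoter of Hes5, a Notch target, makes green GFP. Of the cells, 65.6% were sorted as positive for both proteins (Hes5_GFP) and 34.4% as positive for mRFP alone (CAG_mRFP), so both groups carried the same plasmid, which reaches only the cells that took it up and their progeny. The authors had assigned 57.04% of cells to radial glial cells (RGCs, the dividing stem cells of the cortex), 17.1% to intermediate progenitor cells (IPCs, their dividing daughters) and 25.8% to excitatory neurons (ENs), and had given each cell a cell cycle phase and 1 of 8 clusters.

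Kinesins are motor proteins that use ATP to walk along microtubules or to take their ends apart. In a dividing cell, mitotic kinesins push the spindle poles apart, align the chromosomes and build the midzone at which the daughter cells separate. In a neuron, transport kinesins carry vesicles, mitochondria and cytoskeletal parts along the axon and dendrites.

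The labels name no animals, so the day of sorting served as the replicate, and the spread between days covers sessions as well as embryos. Days are called 1 to 4, and 3 cells of a further day entered values over all cells of a cluster or class only. Total counts per cell ran from 814 to 1982807. Levels are summed CPM, the counts of a gene summed over the cells of a class and day, per 1000000 counts of those cells. A log2 ratio between classes or phases was taken within each day after adding 1 CPM to both levels, and its mean is given with the SD over days. Because the authors drew classes, phases and clusters from the expression of these same cells, those contrasts are descriptions without a test. A gene is said to be called when its mean ratio was at least 1 in size and had 1 sign on every day. The share of all genes called in the same way is given beside the first count in each direction. Where the days of 2 groups are said not to overlap, the share of all genes that separate so is not given. The classes held the markers of their names: 9 radial glia markers summed to 3906 CPM in RGCs, 546.9 in IPCs and 375.3 in ENs, 6 intermediate progenitor markers to 229.3, 2363 and 1699 CPM in the same order, and 8 cortical neuron markers to 244.8, 2632 and 7956 CPM. In IPCs the neuron markers thus summed to more than the markers of their own name. Summed markers of interneurons, endothelium, pericytes, microglia, erythroid cells and meningeal fibroblasts reached at most 14.8 CPM in any class over all its cells. On single days in RGCs, endothelium markers reached 34.9 CPM and erythroid markers 22.8 CPM. Microglia had 1 of 5 listed genes in the table and pericytes 2 of 4. The markers of Cajal-Retzius cells, with 2 of 5 listed genes in the table, summed to 125.2 CPM in ENs (75.4 to 245.4 by day). They summed to 5.53 CPM in IPCs and 0.627 CPM in RGCs. The part of Cajal-Retzius cells in the EN values was not tested.

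Of the 39 genes, 25 reached 20 summed CPM in at least 1 class, namely 11 mitotic kinesins, 10 transport kinesins and 4 others. The other 14 stayed lower in every class. Among them were the mitotic Kifc1 and Kifc5b, whose highest class levels were 19.8 and 1.602 CPM and whose sequences are near-identical copies, so that reads could be split between them. The 5 low transport kinesins, Kif1c, Kif13a, Kif13b, Kif16b and Kif17, had highest class levels of 0.655 to 13.9 CPM. The 7 low members of the third group, Kif6, Kif7, Kif19a, Kif26a, Kif27, Kifc2 and Kifc3, had highest class levels of 0.0526 to 15.6 CPM. Per kilobase of exon, the scale on which genes can be compared, the leading mitotic kinesins in RGCs were Kif22 with 84.1, Kif11 with 70.02 and Kif20a with 69.3 CPM per kb. In ENs the leading kinesins on this scale were Kif5c with 49.9, Kif3a with 49.6 and Kif21a with 46.4 CPM per kb.

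**Figure D1:**
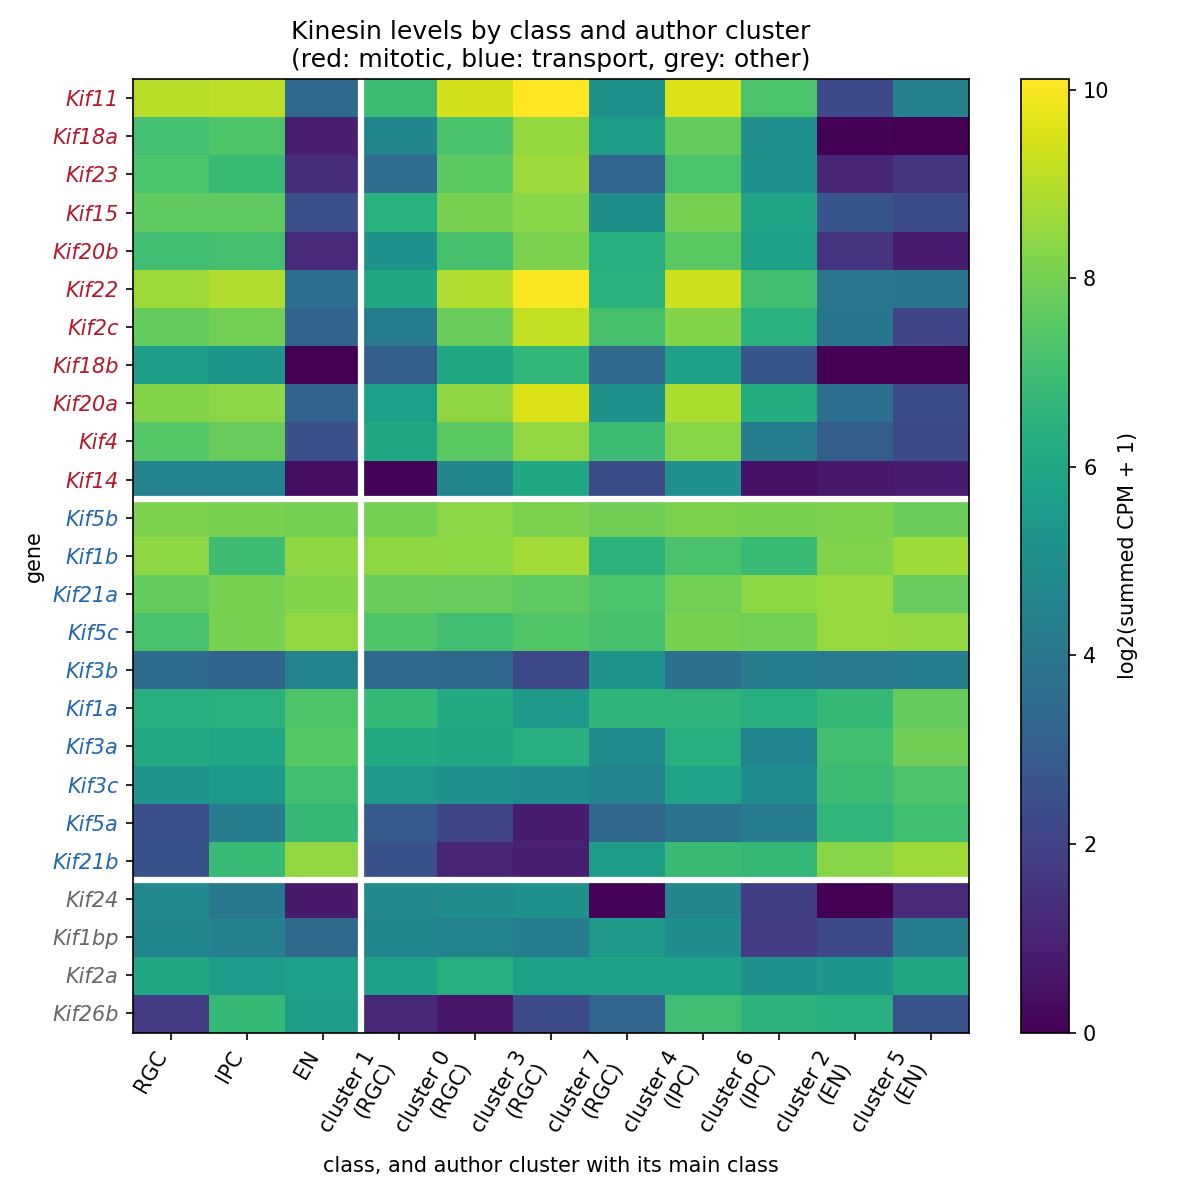
Levels of the 25 kinesin genes that reached 20 summed CPM in a class. Rows are genes, ordered within each role by the RGC to EN ratio, columns are the 3 classes and the 8 author clusters with the class that holds most of their cells, and colour is log2(summed CPM + 1); the mitotic block is dark in ENs and in clusters 2 and 5, and Kif21b and Kif5a are dark in RGCs.

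Mitotic kinesins separated both progenitor classes from neurons. All 12 mitotic kinesins with at least 5 summed CPM in RGCs or ENs lay higher in RGCs and were called, where 22.4% of all 10633 genes were called in that direction. Their median log2 ratio was 5.36, and that of all genes 0.18. All 12 were also called higher in IPCs than in ENs (13.5% of all genes), with a median of 5.63 against -0.02. The contrasts with ENs used days 2, 3 and 4, the days with at least 10 cells of both classes, and share their EN cells.

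Kif11 (chr19:37376403-37421859 in GRCm38, plus strand) is the Eg5 motor that slides antiparallel spindle microtubules and keeps the poles apart. Its summed CPM in RGCs on days 2, 3 and 4 was 611.8, 580.6 and 568.3, and in ENs 0.0572, 6.58 and 16.3. Every RGC value lay far above every EN value, at a mean log2 ratio of 6.83 ± 2.13 (SD, n = 3 days). Kif15, another motor of the bipolar spindle, gave 295.1, 191.6 and 212.3 CPM in RGCs and 0.0572, 5.89 and 5.71 CPM in ENs (log2 ratio 5.98 ± 1.87). Again the classes did not overlap on any day.

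Kif18a, which shortens the plus ends of kinetochore microtubules as chromosomes align, gave 97.04, 188.5 and 106.9 CPM in RGCs and 0.0572, 0.0430 and 1.53 CPM in ENs (log2 ratio 6.48 ± 1.05). Kif22, the chromosome arm motor Kid, gave 315.5, 471.5 and 477.7 CPM in RGCs and 3.37, 10.1 and 16.4 CPM in ENs (5.46 ± 0.70). Kif2c, the microtubule depolymerase MCAK of the centromere, had mean levels of 210.5 ± 45.4 CPM in RGCs and 8.35 ± 8.75 CPM in ENs (5.26 ± 1.85). On every day used, these chromosome motors lay higher in RGCs than on any day in ENs.

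The motors of the spindle midzone and of cytokinesis showed the same order. Kif23, the MKLP1 subunit of centralspindlin, gave 111.9, 162.3 and 176.2 CPM in RGCs and 0, 5.29 and 0.129 CPM in ENs (log2 ratio 6.27 ± 1.38). Kif20b, another midzone kinesin, gave 77.8, 168.4 and 126.5 CPM in RGCs and 0.0572, 4.38 and 0.302 CPM in ENs (5.94 ± 0.86). Kif20a, or MKLP2, which brings the chromosomal passenger complex to the midzone, had 310 ± 79.1 CPM in RGCs and 10.1 ± 4.64 CPM in ENs (4.89 ± 1.03). Kif4, the chromokinesin that works with Prc1, had 170.7 ± 34.5 and 5.39 ± 3.26 CPM (4.85 ± 0.80), and Kif14, a midbody motor, 34.2 ± 24.3 and 0.401 ± 0.695 CPM (4.55 ± 1.39).

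Kif18b, which shortens astral microtubules, had no count in ENs on any of the 3 days against 38.4 ± 23.2 CPM in RGCs. Pooled over the RGCs of those days it had 8614 counts, or 47.9 CPM. Set against a floor of 3 counts over all EN cells of those days, this pooled level was 1391-fold higher. Kifc1, the minus-end motor that focuses spindle poles, likewise had no EN count and 15.6 ± 17.8 CPM in RGCs. Its pooled level of 8.30 CPM was 241.1-fold higher on the same floor. These folds are in reads and are no lower bounds, since reads of this protocol carry no molecular identifiers.

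**Figure D2:**
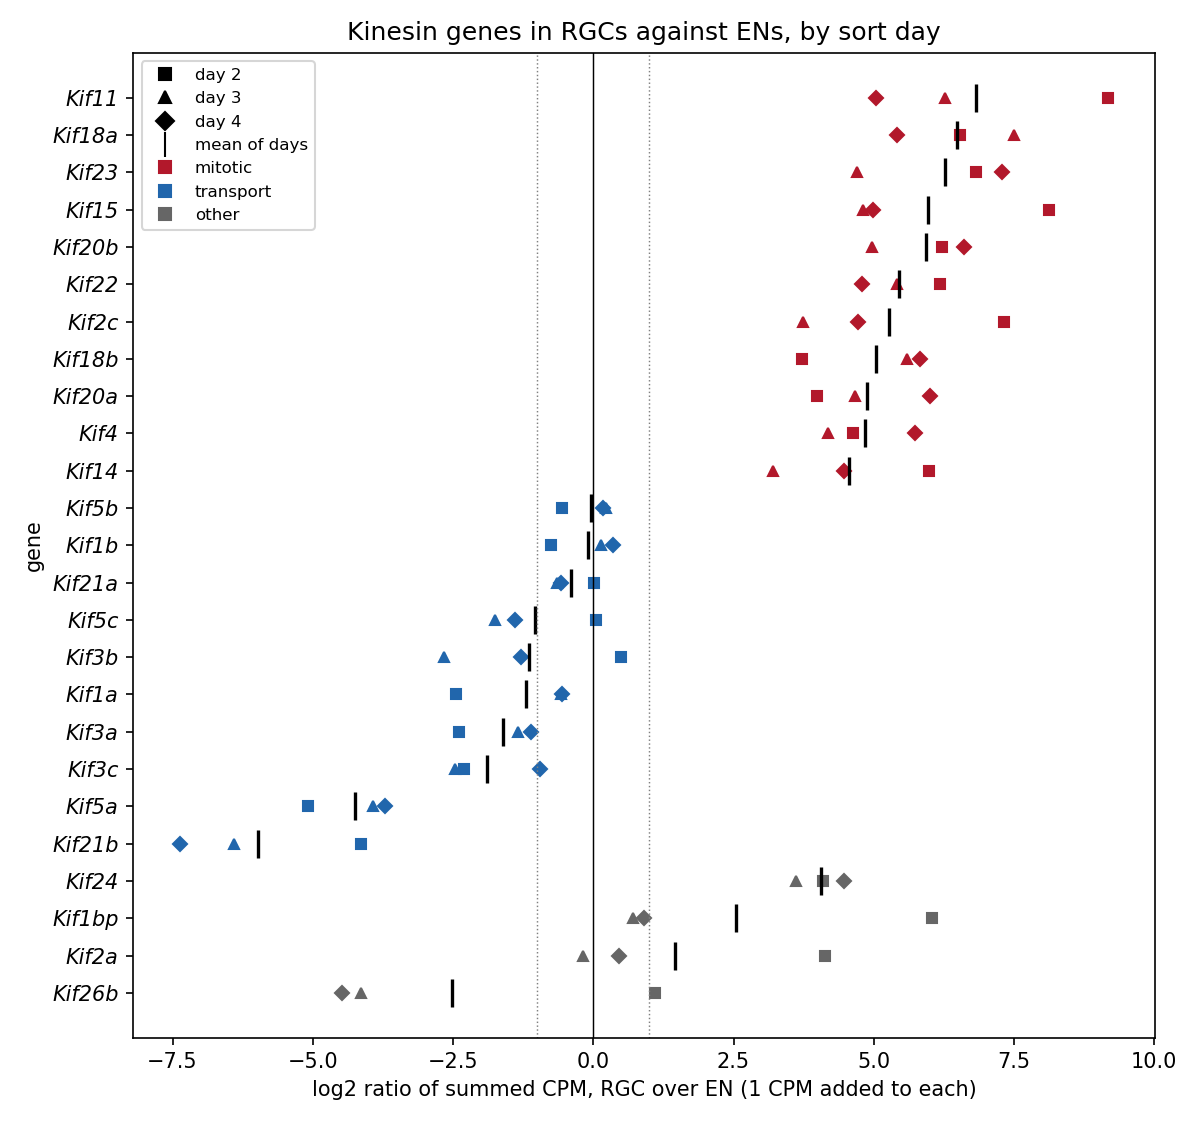
log2 ratio of summed CPM in RGCs over ENs for each of the 25 genes, 1 symbol per sort day (days 2, 3 and 4) with the mean as a bar and dotted lines at a ratio of 1 in size. All mitotic symbols lie to the right of 3, Kif5a and Kif21b lie left of -3 on every day, and Kif5b, Kif1b and Kif21a straddle or lie near 0.

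The transport kinesins did not move as a block. Of 11 tested by level, 5 were called lower in RGCs than in ENs (14.8% of all genes were), 1 was called higher, Kif13a, at low mean levels of 9.91 CPM in RGCs and 3.52 CPM in ENs, and their median log2 ratio was -1.15. In IPCs against ENs, 5 of 11 were called lower (13.8% of all genes) and none higher, with a median of -1.14. Kif21b and Kif5a stood furthest from 0. Kif21b (chr1:136131389-136177998, plus strand), a neuronal motor that also slows microtubule growth, gave 28.5, 2.46 and 0.619 CPM in RGCs on days 2, 3 and 4 and 517.3, 291.4 and 267.6 CPM in ENs. The classes did not overlap, with a log2 ratio of -5.97 ± 1.66 (SD, n = 3 days). Kif5a, the neuron-restricted heavy chain of conventional kinesin, gave 5.18, 3.92 and 5.08 CPM in RGCs and 208.96, 73.6 and 78.9 CPM in ENs (-4.24 ± 0.74), again without overlap.

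The heavy chains of conventional kinesin, kinesin-1, differed among themselves. Kif5b, the chain found in most tissues, gave 148.8, 314.4 and 313.8 CPM in RGCs and 218.7, 267.2 and 277.8 CPM in ENs, a log2 ratio of -0.05 ± 0.44 with both signs among the days. Kif5c, a chain enriched in neurons, gave 227.03, 148.4 and 131.5 CPM in RGCs and 218.2, 503.8 and 346.97 CPM in ENs. Its ratio of -1.03 ± 0.96 was not called because on day 2 the levels lay side by side. So along the set Kif5b, Kif5c and Kif5a the mean ratio went from near 0 to beyond -4.

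The heterotrimeric kinesin-2 motor, which carries cargo in axons and cilia, is built from Kif3a with Kif3b or Kif3c. Kif3a gave 52.8, 78.5 and 61.2 CPM in RGCs and 280.6, 199.8 and 132.7 CPM in ENs (log2 ratio -1.61 ± 0.68). Kif3c gave 38.1, 33.99 and 43.9 CPM in RGCs and 192.2, 191.02 and 85.3 CPM in ENs (-1.90 ± 0.83). Both were lower in RGCs on every day, whereas Kif3b was low in both classes, with 22.99, 3.86 and 8.25 CPM in RGCs and 16.1, 29.6 and 21.7 CPM in ENs, and was not called (-1.15 ± 1.57).

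Among the kinesin-3 motors of vesicle transport, Kif1a, which carries synaptic vesicle precursors, gave 56.5, 89.9 and 79.3 CPM in RGCs and 312.4, 134.4 and 116.6 CPM in ENs (log2 ratio -1.19 ± 1.09). It was called lower in RGCs, but only day 2 passed a ratio of 1 in size. When G1 cells alone were compared, on days 3 and 4, Kif1a levels were 132.96 ± 4.90 CPM in RGCs and 126.6 ± 11.6 CPM in ENs and the ratio was 0.07 ± 0.08. Within Hes5_GFP cells alone, on the same 2 days, it was called lower in RGCs at -1.24 ± 0.08 (89.5 against 212.2 CPM), and within CAG_mRFP cells alone at -2.94 ± 0.06 (12.7 against 104.2 CPM). Kif1b, which carries mitochondria and vesicle precursors, gave 344.8, 357.7 and 354.05 CPM in RGCs and 584.9, 325.7 and 276.2 CPM in ENs (-0.09 ± 0.59). Kif21a, which is no kinesin-3 motor but a close relative of Kif21b, had 212.4 ± 14.4 CPM in RGCs and 283.3 ± 49.6 CPM in ENs (-0.40 ± 0.36). Kif21a and Kif21b thus differed widely in their ratios.

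Of the remaining kinesins, 5 were tested by level and 3 were called higher in RGCs (22.4% of all genes), none lower. Kif24, which shortens microtubules at the centriole and restrains cilium growth, gave 15.99, 32.2 and 29.8 CPM in RGCs and 0, 1.72 and 0.388 CPM in ENs (log2 ratio 4.06 ± 0.43), without overlap. Kif7, a ciliary regulator of Hedgehog signalling, was low in both, at 16.4 ± 12.7 and 2.82 ± 3.24 CPM (2.39 ± 2.35). Kif1bp encodes no motor but a protein that binds kinesins. Its ratio of 2.55 ± 3.02 rested on day 2 (64.5 CPM in RGCs and 0 in ENs) and was 0.80 without that day. Kif2a, a depolymerase of spindle poles and neuronal growth cones, gave 66.6, 56.4 and 84.6 CPM in RGCs and 2.86, 64.5 and 61.6 CPM in ENs, with both signs among the days (1.46 ± 2.33). Kif26b went the other way but was not called. Over all cells it had 2.37 CPM in RGCs and 50.5 CPM in ENs. It lay higher in RGCs only on day 2, when ENs had 0 CPM. In G1 cells alone, 1 of the 4 named others was called lower in RGCs (18.4% of all genes).

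RGCs and IPCs, both of which divide, were compared on all 4 days. None of 12 mitotic kinesins was called in either direction (13.2% of all genes were called higher and 5% lower in RGCs), and their median log2 ratio was 0.06. Kif11 gave 182.1, 611.8, 580.6 and 568.3 CPM in RGCs on days 1 to 4 and 134.4, 506.6, 598.5 and 691.5 CPM in IPCs. The ranges overlapped almost entirely and the ratio was 0.10 ± 0.32. The count differed by reporter group. In Hes5_GFP cells alone none of the 11 named mitotic kinesins was called (16.2% of all genes were called higher and 6.39% lower in RGCs). In CAG_mRFP cells alone, on days 3 and 4, 7 of them were called lower in RGCs than in IPCs (17.4% of all genes). Kif11 then had 241.5 ± 5.38 CPM in CAG_mRFP RGCs and 753.7 ± 103.9 CPM in CAG_mRFP IPCs (log2 ratio -1.63 ± 0.23), and the difference between the reporter groups was not tested. Of the CAG_mRFP RGCs 27.8% were called G2M and 68.1% G1, and 26.4% lay in cluster 7 and 18.1% in cluster 2, whereas 63.8% of CAG_mRFP IPCs were called G2M. The part of phase and cluster in these values was not tested. A ratio near 0 over 4 days does not show that the classes were equal, since for Kif18a the days ran from -1.16 to 1.76.

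Kif1b, Kif21b and Kif26b were the 3 kinesins called between RGCs and IPCs. Of 11 transport kinesins tested, 1 was called higher and 1 lower in RGCs, and of 6 others, 1 was called lower. Over all genes 13.2% were called higher and 5% lower. Kif1b (chr4:149176319-149307693, minus strand) gave 239.4, 344.8, 357.7 and 354.05 CPM in RGCs on days 1 to 4 and 85.7, 123.2, 157.3 and 121.8 CPM in IPCs. Every RGC value lay above every IPC value, with a log2 ratio of 1.41 ± 0.16 (SD, n = 4 days). In ENs the 3 days gave 584.9, 325.7 and 276.2 CPM, and IPCs lay below ENs by -1.49 ± 0.65, so that Kif1b was lowest in the middle class. Regrouped by cluster, the same cells gave 148.4 CPM in cluster 4 and 110.7 CPM in cluster 6, where most IPCs lie. Clusters 0, 1, 2, 3 and 5 had 293.5 to 421.8 CPM. As the cells are the same, the cluster values carry no independent weight. Cluster 7, mostly RGCs with a median of 97172 counts per cell, had 92.6 CPM. Among cells thinned to 50000 counts, 75.1% of RGCs, 56.2% of IPCs and 68.95% of ENs had a Kif1b read (95% exact Clopper-Pearson intervals 71.3 to 78.6, 48.6 to 63.6 and 62.8 to 74.7).

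Kif21b was intermediate in IPCs. It gave 9.10, 28.5, 2.46 and 0.619 CPM in RGCs on days 1 to 4 and 330, 142.8, 45.7 and 61.2 CPM in IPCs, a log2 ratio of -4.08 ± 1.37. All IPC days lay above all RGC days, and IPCs lay below ENs by -2.20 ± 0.41 over the 3 shared days. After thinning, 2.12% of RGCs, 32.6% of IPCs and 62.5% of ENs had a read of Kif21b (intervals 1.10 to 3.67, 25.8 to 39.998 and 56.2 to 68.5). Its share of cells was thus lowest in RGCs and highest in ENs.

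Kif26b (chr1:178529125-178939200, plus strand), a kinesin relative without a normal ATPase that acts in adhesion and Wnt signalling, was a gene of IPCs and of some neurons. It gave 5.45, 1.14, 1.40 and 2.46 CPM in RGCs on days 1 to 4 and 94.4, 201.3, 74.02 and 82.4 CPM in IPCs. The classes did not overlap, with a log2 ratio of -5.00 ± 1.13. ENs gave 0, 41.3 and 76.3 CPM on days 2, 3 and 4. Their ratio to IPCs, 2.86 ± 4.17 in favour of IPCs, rested on day 2 and was 0.47 without it. Between the EN clusters the gene differed, with 82.8 CPM and a read in 25.4% of cells in cluster 2 against 4.94 CPM and 4.27% in cluster 5. IPC clusters 4 and 6 had 126.8 and 92.5 CPM, and RGC clusters 0, 1 and 3 had 0.532, 1.22 and 4.17 CPM.

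The mitotic kinesins also followed the cell cycle phase. The phase had been assigned from expression, and a widely distributed scoring list of G2M genes holds 4 members, Kif11, Kif20b, Kif23 and Kif2c. Whether that list was used is not given in the sources used here, so the phase differences of those genes in particular carry no independent weight. Between G2M and G1 RGCs, on days 1, 3 and 4, all 12 mitotic kinesins tested by level were called higher in G2M (5.42% of all genes were), with a median log2 ratio of 4.88 against -0.22 over all genes. All 12 were also called in IPCs (15.7% of all genes), on days 3 and 4, with a median of 4.05.

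Kif23 had the widest ratio, with 1 CPM added to both levels. G2M RGCs gave 396.7, 265.9 and 288.1 CPM on days 1, 3 and 4, and G1 RGCs 0, 4.29 and 2.45 CPM, a log2 ratio of 6.89 ± 1.55 (SD, n = 3 days). Kif18b gave 77.4 to 260.8 CPM in G2M on these days and 0.312, 2.05 and 5.26 CPM in G1 (5.35 ± 2.04). Kif14 had no count in G1 RGCs and 34.5, 32.1 and 34.8 CPM in G2M. Its pooled G2M level of 33.5 CPM was 675.7-fold higher than a floor of 3 counts over all G1 RGCs of those days. This fold is in reads and is no lower bound. By cells of all days, 29.1% of G2M RGCs and 0% of G1 RGCs had a Kif14 read (intervals 24.2 to 34.3 and 0 to 1.58). For these 3 genes, every G2M day lay above every G1 day.

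Kif22 gave 290, 730.7 and 713.5 CPM in G2M RGCs and 0.2499, 35.96 and 90.7 CPM in G1 RGCs (log2 ratio 5.04 ± 2.53). Kif2c gave 407.7, 389.3 and 335.6 CPM in G2M and 1.19, 16.4 and 42.5 CPM in G1 (4.99 ± 2.34). Kif11 gave 730.7, 918 and 856 CPM in G2M and 7.19, 41.01 and 62.1 CPM in G1 (4.90 ± 1.41). In each case the phases did not overlap, and day 1, with 19 G1 and 10 G2M RGCs, had the lowest G1 value.

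Kif15 and Kif20b had the smallest phase ratios of the named mitotic kinesins. Kif15 kept 66.7, 69.3 and 57.2 CPM in G1 RGCs against 230, 275.96 and 282.8 CPM in G2M (log2 ratio 2.01 ± 0.26). Kif20b had 36.6 ± 25.2 CPM in G1 and 160 ± 88.2 CPM in G2M (2.19 ± 0.71). The ratios of these genes in IPCs were 2.16 ± 0.50 and 2.16 ± 1.63 (n = 2 days), and over the 3 days Kif15 had the highest mean G1 level of the mitotic kinesins in RGCs.

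S phase RGCs lay between, on days 3 and 4. Of 12 mitotic kinesins tested, 11 were called higher in G2M than in S (11% of all genes), and of 11 tested, 10 were called higher in S than in G1 (7.53% of all genes). Kif11 had 51.6 ± 14.9 CPM in G1, 308.7 ± 19.97 CPM in S and 887 ± 43.6 CPM in G2M, and Kif23 had 3.37 ± 1.30, 49.8 ± 10.2 and 277.01 ± 15.7 CPM. The G1, S and G2M levels of these genes were in that order on both days. Kif20b was not called between G2M and S (0.95 ± 0.01), and Kif4 not between S and G1 (0.84 ± 2.12).

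**Figure D3:**
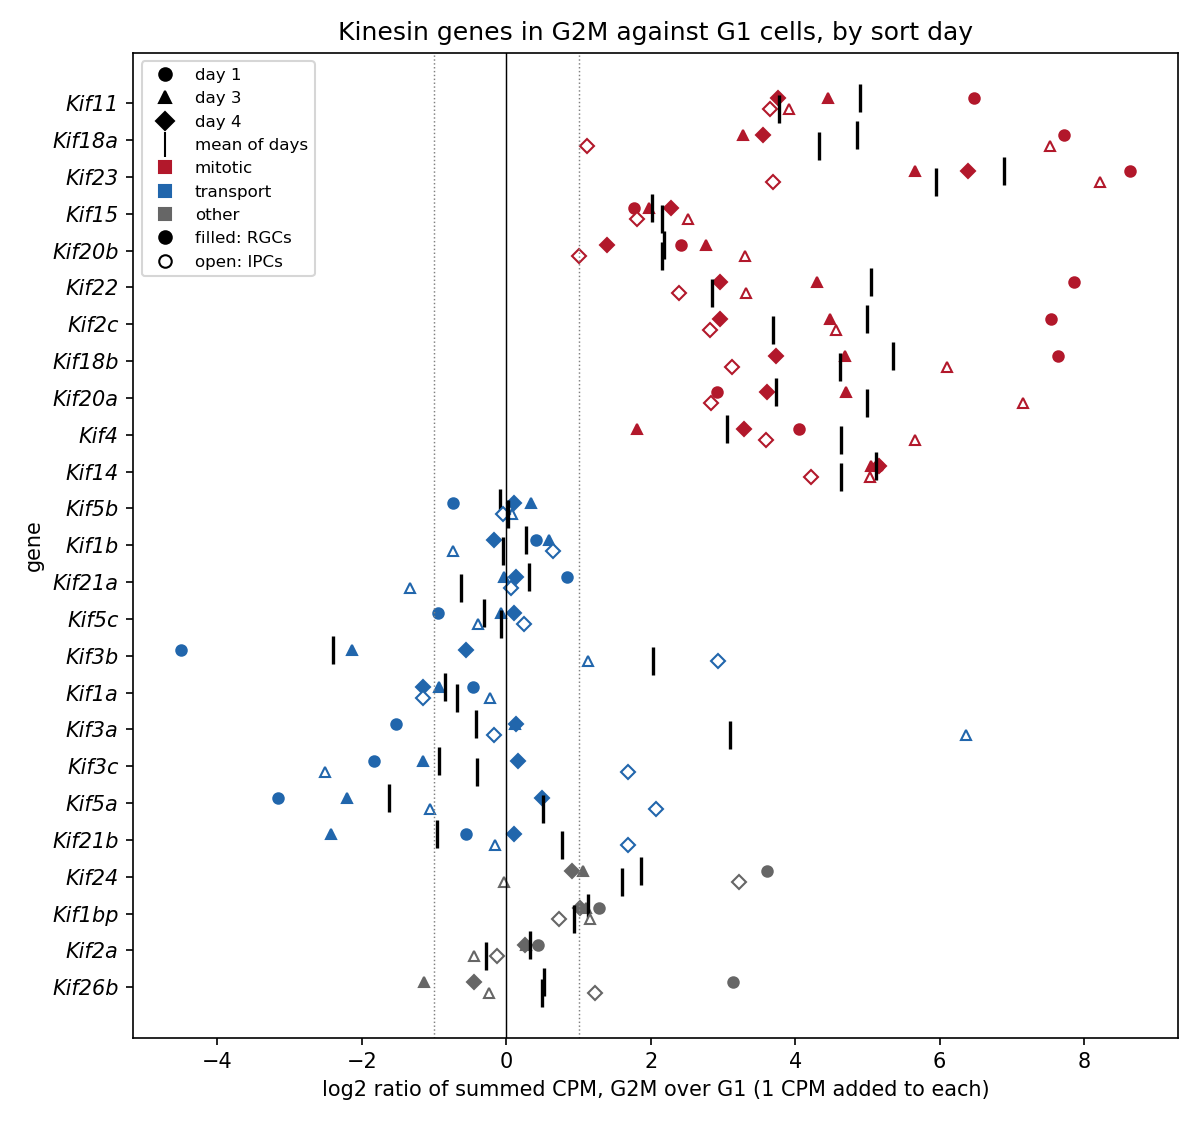
log2 ratio of summed CPM in G2M over G1 cells for each of the 25 genes, 1 symbol per sort day, filled for RGCs (days 1, 3 and 4) and open for IPCs (days 3 and 4), with the mean as a bar. Every mitotic symbol lies above 0, and Kif5b, Kif1b, Kif21a and Kif5c lie on both sides of 0.

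Few transport kinesins were called between phases. Of 12 tested in RGCs, none was called higher and 1 lower in G2M (10.3% of all genes were called lower), and none of 10 was called lower in IPCs (11.6% of all genes). The one called was Kif3b, with 1.28, 1.53 and 4.999 CPM in G2M and 50.9, 10.2 and 7.85 CPM in G1 (log2 ratio -2.40 ± 1.99), a gene with a read in 71 cells in all. In Hes5_GFP IPCs alone, on days 3 and 4, 4 of the 10 named transport kinesins were called higher in G2M (18.2% of all genes) and 1 lower (11.3%). Those higher were Kif21b (1.77 ± 0.25), Kif3b (2.41 ± 1.48), Kif3c (1.75 ± 0.42) and Kif5a (3.35 ± 1.59), and the one lower was Kif1a (-1.03 ± 0.38). In RGCs Kif1a was lower in G2M on each day, with 85.9, 71.2 and 57.8 CPM against 119.03, 136.4 and 129.5 CPM in G1, but at -0.85 ± 0.35 it did not reach the size called. In Hes5_GFP cells alone, on days 3 and 4, it was called, at -1.20 ± 0.14 (66.2 against 152.9 CPM). Kif5b had 264.4 ± 101.6 CPM in G2M and 266.3 ± 25.5 CPM in G1 (-0.09 ± 0.57). Between S and G1 none of 12 was called (11.1% of all genes lower in S), and between G2M and S only the low Kif1c was called lower (6.42% of all genes), with 5.25 ± 7.14 CPM in S.

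Of the others, Kif24 followed the mitotic genes at a smaller size, with 40.3, 41.4 and 33.1 CPM in G2M RGCs and 2.37, 19.3 and 17.1 CPM in G1 RGCs (log2 ratio 1.86 ± 1.52). Kif1bp was also called (1.14 ± 0.13), and Kif2a had 63.7 ± 26.1 and 51.4 ± 23.6 CPM (0.33 ± 0.10).

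The class and the phase are bound together, since 97.9% of ENs were in G1 and 51.4% of RGCs in G2M. In G1 cells alone, on days 3 and 4, 8 of the 11 named mitotic kinesins were still called higher in RGCs than in ENs (22.3% of all genes), and the other 3 were under 5 CPM in both classes. Kif11 had 51.6 ± 14.9 CPM in G1 RGCs and 0.940 ± 0.532 CPM in G1 ENs (log2 ratio 4.76 ± 0.01), and Kif15 had 63.2 ± 8.57 and 3.95 ± 2.57 CPM (3.80 ± 0.59). G1 IPCs had 63.1 ± 10.6 CPM of Kif11 and 64.6 ± 16.9 CPM of Kif15. In the same G1 cells 6 of the 10 named transport kinesins were called lower in RGCs (18.4% of all genes), with Kif21b at -6.55 ± 1.92 and Kif5a at -3.99 ± 1.82.

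Mitotic kinesins were found together in single cells. Each cell was thinned to 50000 counts, which left out the 11.01% of RGCs, 6.81% of IPCs and 13.9% of ENs that were shallower, and the number of the 13 genes with a read was counted. The median was 8 genes in G2M RGCs, 4 in S and 1 in G1, and in IPCs 8, 5 and 1. In ENs it was 0. At least 5 genes were found in 90.8% of G2M RGCs (95% exact Clopper-Pearson interval 86.9 to 93.8), in 5 G1 RGCs (2.62%, interval 0.855 to 6.003) and in 2 ENs (0.806%, interval 0.0978 to 2.88). Without thinning the shares were 90.8%, 2.60% and 0.694%. Both ENs with at least 5 genes were among the 4 that the authors called G2M. The 15 transport kinesins gave medians of 4, 4 and 5 genes in RGCs, IPCs and ENs.

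**Figure D4:**
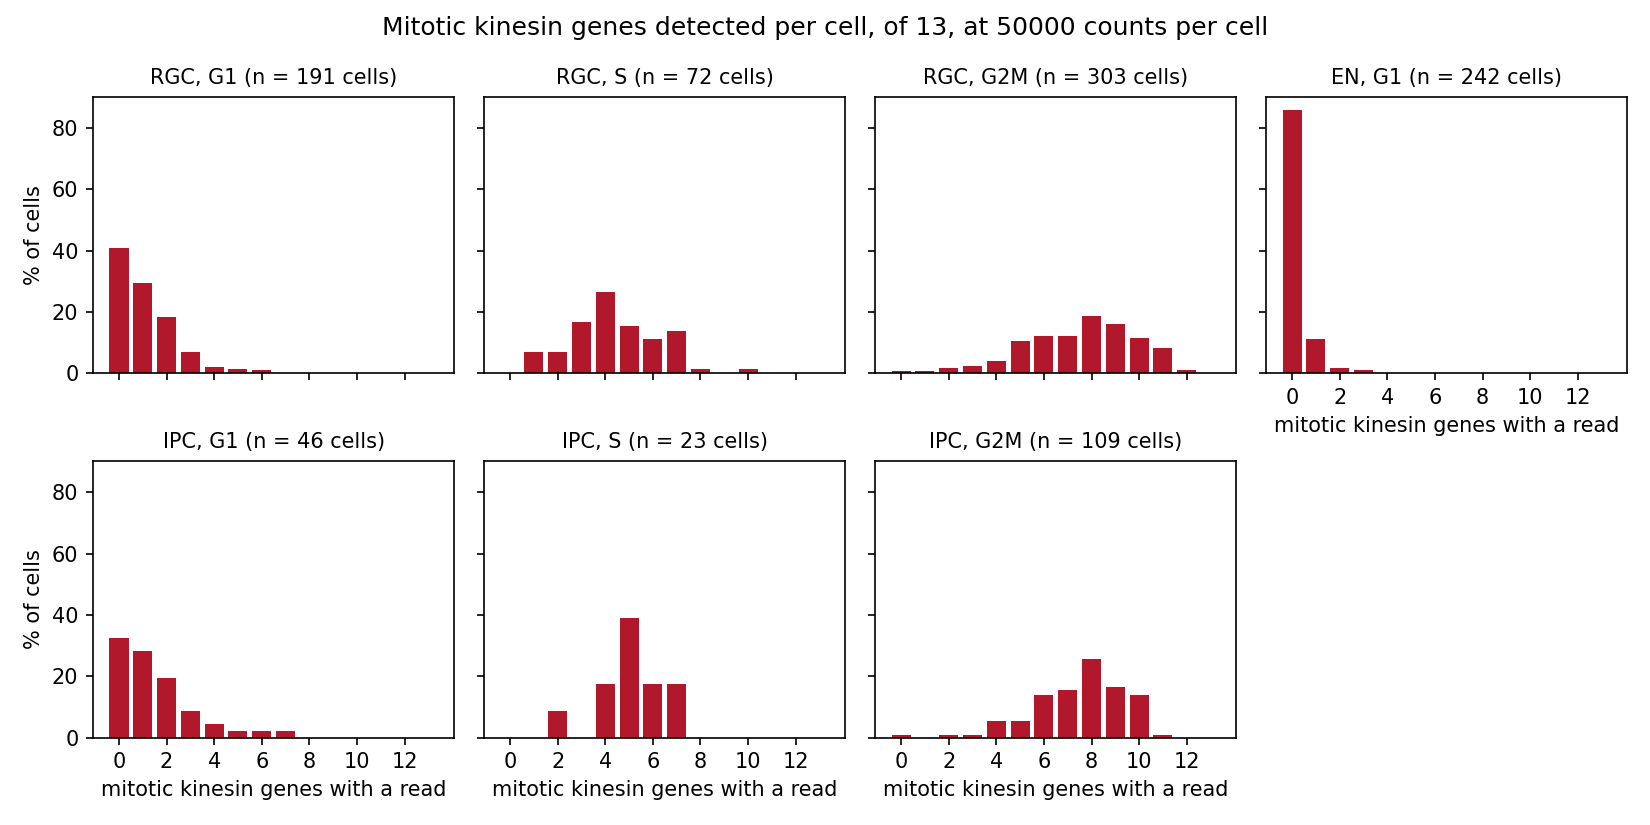
Number of mitotic kinesin genes with a read per cell, of 13, after thinning to 50000 counts; each panel is a class and phase with its number of cells, the horizontal axis the number of genes and the vertical axis the percent of cells. G1 cells of RGCs and IPCs peak at 0, S cells at 4 and 5, G2M cells at 8, and ENs at 0.

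The clusters of RGCs differed in the same genes. Cluster 3 consisted of G2M cells only, cluster 0 was in G2M for 80.5% of its cells and cluster 1 in G1 for 79.9%. In that order Kif11 had 1107, 678.5 and 121.9 CPM. Kif23 had 392.4, 189.6 and 11.4 CPM and Kif18a had 363.5, 147.1 and 24.1 CPM, the highest in cluster 3 each time. Kif5b varied less, at 274.2, 322.8 and 258.1 CPM. Among IPCs, cluster 4 had 766 CPM of Kif11 and cluster 6 had 150 CPM.

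The partner genes of mitotic kinesins were counted in the same way. Of 15 spindle and midzone partners, 14 were called higher in RGCs than in ENs (22.4% of all genes), with a median log2 ratio of 5.49. Nusap1, a microtubule bundler, was at 7.38 ± 1.23, Plk1, the mitotic kinase, at 7.18 ± 1.12, and Cdca8, a subunit of the chromosomal passenger complex, at 6.87 ± 1.75. Numa1 was not called (0.09 ± 0.99). All 15 were called higher in G2M than in G1 RGCs (5.42% of all genes). Whether any of these 15 served to assign the phase is not given in the sources used here. Their phase count therefore carries no independent weight.

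Of 17 transport partners tested by level, 10 were called lower (14.8% of all genes) and 2 higher (22.4%) in RGCs than in ENs, with a median of -1.55. The presynaptic scaffold gene Ppfia2 was at -4.54 ± 0.62, Grip1, a cargo adaptor, at -2.81 ± 1.13, and Trak1, the mitochondrial adaptor, at -2.26 ± 1.32. Kifap3, the non-motor subunit of the kinesin-2 motor, was at -1.55 ± 1.07, near its partners Kif3a and Kif3c. Of 14 dynein and dynactin genes, which serve the opposite direction of transport, 4 were called lower and 1 higher in RGCs, against the same 14.8% and 22.4% of all genes, with a median of -0.69. The one higher was Nde1, which binds dynein and acts in progenitor division, at 3.17 ± 1.23.

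Promoters were examined because the mitotic members moved together. Genes of G2 and mitosis are known to carry in many cases a cell cycle genes homology region with the letters TTTGAA near the start of transcription and CCAAT boxes upstream of it. RefSeq promoter windows of the GRCm38.p6 build, 250 bases before to 50 after the start, were at hand for 30 of the 39 genes, 12 of them mitotic and 11 transport kinesins. The following stretches are the 90 bases before the start in 3 mitotic kinesins and in Kif5c for contrast, chosen after the letters had been searched, 5′ to 3′ on the gene's strand. Capitals mark TTTGAA or CCAAT on either strand, so that TTCAAA and ATTGG are the same letters read on the other one.
Kif11, chr19:37376292-37376381, plus strand: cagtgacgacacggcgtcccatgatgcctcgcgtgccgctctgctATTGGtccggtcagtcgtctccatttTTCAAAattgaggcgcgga
Kif15, chr9:122950991-122951080, plus strand: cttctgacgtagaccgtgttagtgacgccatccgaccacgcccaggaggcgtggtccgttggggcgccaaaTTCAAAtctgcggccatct
Kif22, chr7:127042421-127042510, minus strand: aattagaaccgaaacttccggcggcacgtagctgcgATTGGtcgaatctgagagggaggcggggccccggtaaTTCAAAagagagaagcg
Kif5c, chr2:49619196-49619285, plus strand: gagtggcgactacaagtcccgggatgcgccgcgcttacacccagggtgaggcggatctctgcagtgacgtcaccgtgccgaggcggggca

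In Kif11, Kif15 and Kif22 the TTTGAA letters begin 19, 19 and 17 bases before the RefSeq start. By GENCODE M21 the genes Kif15 and Kif22 begin further upstream, so there the letters lie inside the gene. Searched on both strands in the window of 300 bases, TTTGAA was present in 11 of 12 mitotic kinesins (91.7%), 1 of 11 transport kinesins (9.09%), 2 of 7 others (28.6%) and 20.2% of the 27025 genes with a window. CCAAT, which does not overlap TTTGAA in letters, was present in 8 of 12, 3 of 11, 4 of 7 and 41.1%. The related letters TTTAAA were present in 2 of 12 mitotic kinesins and 14.9% of all genes. Between 60 bases before and 30 after the start, a span set after the matches had been seen, both TTTGAA and CCAAT were present in 7 of 12 mitotic kinesins, in no transport kinesin or other member, and in 0.918% of all genes. The 7 count the near-identical copies Kifc1 and Kifc5b separately. Kif26b, of the other members, had TTTGAA 9 and CCAAT 73 bases before the start. It was left out only by the limit of the span. The mitotic kinesin without TTTGAA was Kif18a, which was called in the same direction as the others between RGCs and ENs and between G2M and G1 cells. The transport kinesin with it was Kif1a, in 1 of its 2 windows. A match is a description of letters, not evidence of a bound site.

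The reporter groups gave the only contrast that could be tested, since the sort did not use these transcripts. Over all cells and 4 days, summed counts per day and group held 17772229 to 109537984 counts. In edgeR's quasi-likelihood test with the sort day as a block, 42 of 10517 genes passed an adjusted p of 0.05 (0.399%), 36 of them lower in Hes5_GFP (0.342%). Among 29 kinesins tested, 1 passed, Kif21b. It gave 39.4, 62.5, 17.8 and 28.6 CPM in Hes5_GFP cells on days 1 to 4 and 362.9, 438.3, 218.7 and 207.99 CPM in CAG_mRFP cells. The groups did not overlap, and the gene fell by 3.12 ± 0.23 (SE) on the log2 scale in Hes5_GFP (edgeR adjusted p = 0.0155, lower on 4 of 4 days).

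The groups differed in their classes, with 6.16% of Hes5_GFP cells and 63.3% of CAG_mRFP cells being ENs. Within ENs the Kif21b difference was -0.58 ± 0.32 (SE, 2 days) and within IPCs -0.18 ± 0.60 (2 days). In RGCs the model gave no usable SE, and Kif21b had 10.97, 1.45 and 0.647 CPM in Hes5_GFP cells on days 1, 3 and 4 and 5.16, 16.98 and 0.189 CPM in CAG_mRFP cells, with both signs among the days. So the difference over all cells was not found at that size within IPCs or ENs. Without day 2, 3 or 4 the adjusted p of Kif21b over all cells was 0.0859, 0.122 and 0.123 at log2 differences of -3.23, -2.96 and -3.21, so the call needed each of these days while the size did not.

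Unadjusted p-values under 0.05 came from 8 of the 29 kinesins and 13.6% of all genes tested. All 12 mitotic kinesins tested had a value above 0, from 0.85 to 2.51 with a median of 1.47 (0.15 over all genes), and none passed the adjusted threshold. Without day 1, 5 of the 12 passed, Kif11, Kif15, Kif18a, Kif20a and Kif22 (smallest edgeR adjusted p = 0.0247), where 2.43% of all genes did, and the 12 values ran from 1.34 to 3.59. Kif20b gave 50.5, 69.4, 182.3 and 124.8 CPM in Hes5_GFP cells and 24.1, 35.02, 51.9 and 31.03 CPM in CAG_mRFP cells, a log2 difference of 1.47 ± 0.32 (SE, edgeR adjusted p = 0.144, higher on 4 of 4 days). Kif2c was at 1.65 ± 0.38 (adjusted p = 0.153) and Kif15 at 1.51 ± 0.39 (adjusted p = 0.181). Kif11 was at 0.85 ± 0.57, since on day 1 it was lower in Hes5_GFP, with 89.5 against 251.7 CPM, and on the other days higher, with 510.5 to 561.6 against 181.5 to 201.9 CPM. Within RGCs alone, 11 of 12 mitotic kinesins were above 0, with a median of 0.72 (0.39 over all genes). Without day 1, 3 or 4 these were 11 of 12, 5 of 11 and 8 of 12. Within IPCs alone 7 of 12 were above 0, with a median of 0.01 (0.09 over all genes). Within ENs 3 of 8 were, with a median of -1.76 (-0.14 over all genes).

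Over all cells Kif5a gave 5.07, 45.4, 6.35 and 7.997 CPM in Hes5_GFP cells and 67.1, 117.6, 64.7 and 61.9 CPM in CAG_mRFP cells. The groups did not overlap, at -2.87 ± 0.53 (SE, edgeR adjusted p = 0.107), which missed the threshold. Kif5b, Kif1b and Kif21a lay at 0.12 ± 0.18, -0.01 ± 0.25 and -0.16 ± 0.23. With DESeq2 in place of edgeR, 11.1% of all genes passed and 7 kinesins with them, Kif21b, Kif5a, Kif2c, Kif20b, Kif15, Kif18a and Kif22.

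**Figure D5:**
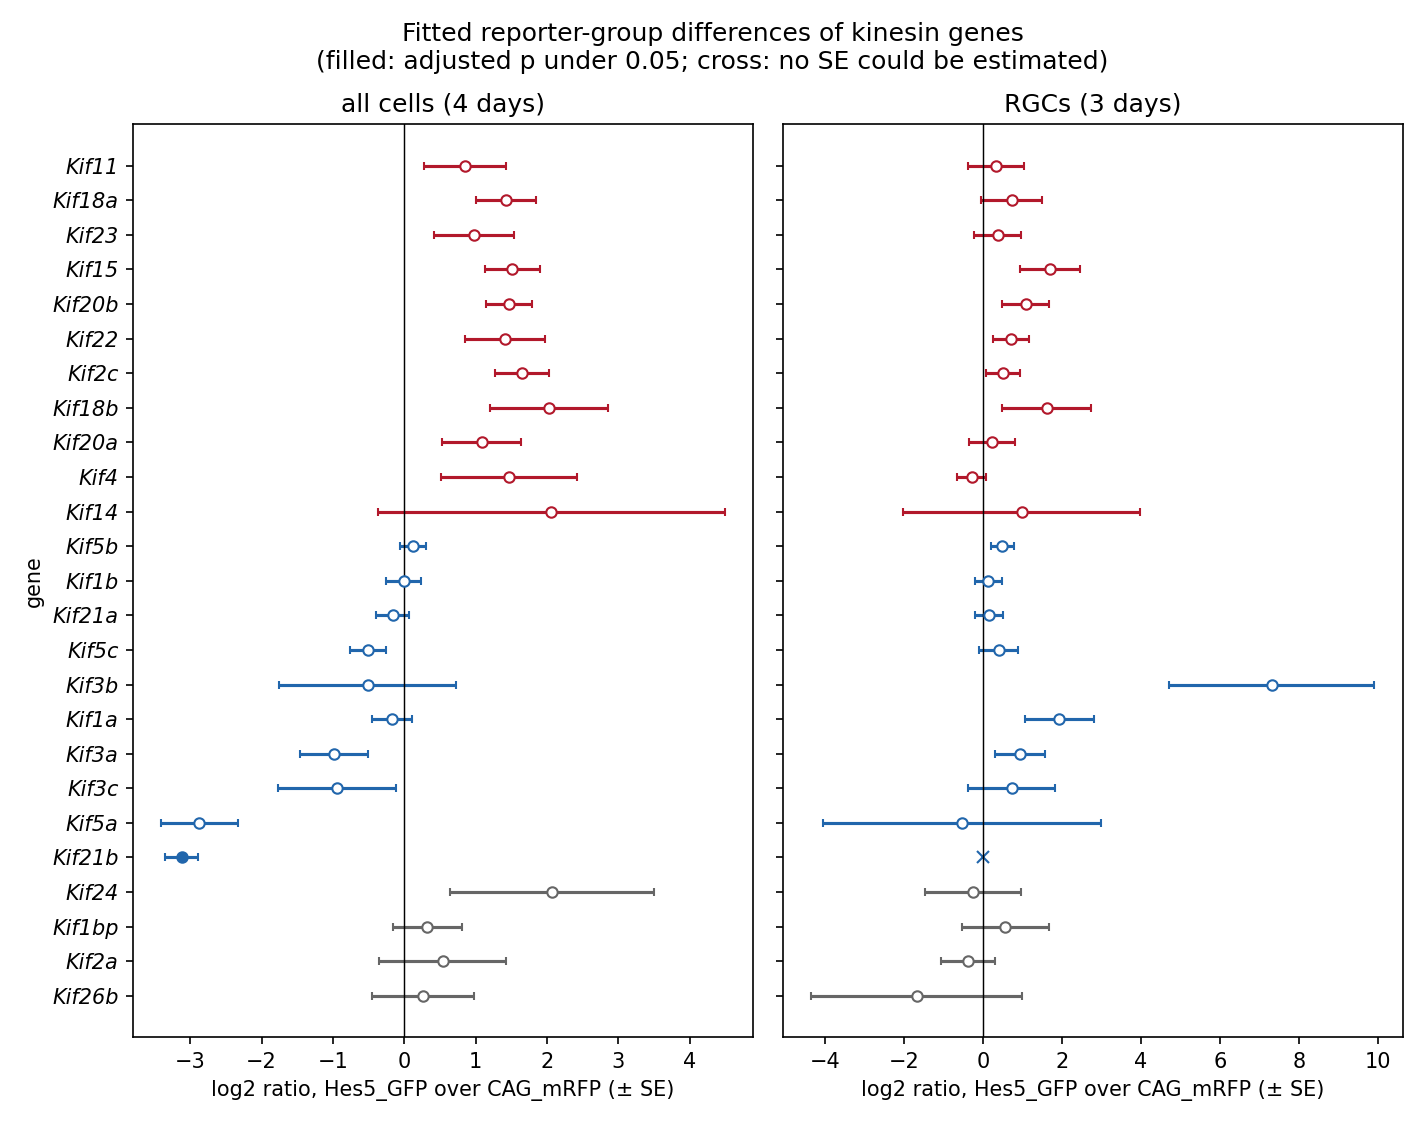
Fitted log2 ratio of Hes5_GFP over CAG_mRFP with its SE for the 25 genes, over all cells (left, 4 days) and within RGCs (right, 3 days), filled where the adjusted p was under 0.05. Over all cells the mitotic points lie right of 0 and Kif21b is the filled point; within RGCs no point is filled, and the cross at Kif21b has no usable SE.

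Within classes edgeR called no gene, that is 0% of 10405 genes in RGCs, 9903 in IPCs and 10020 in ENs. Unadjusted p-values under 0.05 came from 2.04%, 2.78% and 3.18% of genes, and DESeq2 called 1.25%, 4.33% and 7.86%. In RGCs, Kif15 gave 96.02, 202.6 and 223.9 CPM in Hes5_GFP cells on days 1, 3 and 4 and 121.8, 33.4 and 36.8 CPM in CAG_mRFP cells, at 1.69 ± 0.75 (SE, edgeR adjusted p = 0.999). That was the largest value of the named mitotic kinesins in RGCs. Kif11, Kif20a and Kif4 lay at 0.34 ± 0.71, 0.23 ± 0.59 and -0.28 ± 0.37 there. Kif3b gave 41.7, 4.13 and 8.80 CPM against 0.753, 0 and 0 CPM, without overlap (unadjusted edgeR p = 0.0284, adjusted p = 0.999). Beside these values stands the phase, since 54.4% of Hes5_GFP RGCs and 27.8% of CAG_mRFP RGCs were called G2M, and 13 of those 72 CAG_mRFP RGCs lay in cluster 2, a cluster mostly of ENs. Its part in the group values was not tested.

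In ENs, Kif26b gave 89.9 and 213.96 CPM in Hes5_GFP cells on days 3 and 4 and 25.8 and 51.9 CPM in CAG_mRFP cells, at 1.92 ± 0.47 (SE, unadjusted edgeR p = 0.0062, adjusted p = 0.9999, higher on 2 of 2 days). Cluster 6, where Kif26b was high, held 22.2% of Hes5_GFP ENs and 3.29% of CAG_mRFP ENs, and cluster 5, where it was low, held 17.8% and 44.03%. The part of the clusters in this value was not tested. Kif1a was at 1.03 ± 0.36 in ENs (unadjusted edgeR p = 0.0278, adjusted p = 0.9999). In IPCs no kinesin had an unadjusted edgeR p under 0.05, and Kif11, Kif20a and Kif5b lay at -0.33 ± 0.21, 0.00 ± 0.24 and 0.01 ± 0.25.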

How the data were processed

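Single-cell libraries of 1115 sorted cells were analysed from the authors' count table, their normalized table and their cell table. The count table holds estimated counts per gene, which the authors deposited as whole numbers; back-calculation from the normalized table found 2.74% of nonzero entries fractional (tolerance 0.01). The normalized values are, from the files, the natural log of 1 plus counts per 10000, as deposited by the authors. The authors' cell table also gives a mitochondrial fraction per cell. HISAT2, Seurat 2 and mm10 are named per the submitters' processing notes; for the counting tool, the annotation and the way phases and classes were set, the sources used here give nothing. No cell was removed, and no doublet caller was run on cells sorted singly.

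Counts were summed per sort day and group over days with at least 10 cells of each, 4 days over all cells, 3 in RGCs and 2 in IPCs and ENs. The groups share days, which served as a block in the quasi-likelihood test of edgeR 4.0.16 (R 4.3.3); library sizes were total counts, genes needed 5 summed CPM in one of the groups, and p-values were adjusted by Benjamini-Hochberg over all of them. DESeq2 1.42.0 was an alternative. Class and phase ratios followed the same minimum of cells and CPM. Shares have 95% exact Clopper-Pearson intervals, which cover counting of cells only. Exon lengths came from GENCODE M21. Scripts were tested on simulated data. The members, gene lists and role groups were chosen with earlier results of these data known. Members at 20 summed CPM or more in a class are named with values, and per-day values are given for the 6 largest ratios of each role and for genes called in a group test. No protein sequence was used here.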

Additional observations from a re-analysis of the deposited data

Results flagged for a closer look

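Over 100 sets of 4 daily levels of kinesin genes, 13 held a day that stood apart from the other 3 by Dixon's ratio at 95%; chance flags about 1 in 20 such sets. Kif11 was at 182.1 CPM in RGCs on day 1 against 568.3 to 611.8 on the others, and at 89.5 CPM in Hes5_GFP cells against 510.5 to 561.6; on that day 10 of 34 RGCs were called G2M. Kif1b in RGCs was at 239.4 CPM against 344.8 to 357.7, and Kif15 in IPCs at 72.8 CPM against 211.2 to 230. Kif18a in RGCs was at 188.5 CPM against 97.04 to 106.9, and in CAG_mRFP cells at 72.8 CPM against 38.4 to 42.7. Kif18b in CAG_mRFP cells was at 27.05 CPM against 4.39 to 8.12.

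Day 2 stood apart for Kif5b in IPCs (73.2 CPM against 318.9 to 336.3), for Kif26b in IPCs (201.3 CPM against 74.02 to 94.4) and in Hes5_GFP cells (109.1 CPM against 18.7 to 31.02), and for Kif24 in IPCs (19.97 CPM against 14.6 to 14.9). Kif5a on day 2 was at 45.4 CPM in Hes5_GFP cells against 5.07 to 7.997, and at 117.6 CPM in CAG_mRFP cells against 61.9 to 67.1. Day 2 held 16 IPCs.

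Of 100 pairs of effects, 2 had opposite signs on every day. The G2M to G1 log2 ratio of Kif2a was 0.33 in RGCs and -0.29 in IPCs. The Hes5_GFP to CAG_mRFP log2 ratio of Kif3a was 0.92 in RGCs (3 days) and -0.46 in ENs (2 days). Kif3b was among the opposite pairs under that level, with reporter log2 ratios of 4.61, 2.36 and 3.29 in RGCs and -2.44 and -4.73 in ENs. None of these differences was tested.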

How the results depend on the processing

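The counts of kinesins called between classes and phases depended most on the values used. The authors' normalized values add 1 to counts per 10000 rather than to CPM, and were held to the same cutoff of 1. The share of all genes called under each setting is not given for classes and phases. A drop among kinesins can therefore not be told apart from a drop among all genes. With the authors' normalized values, the counts called higher went from 16 to 4 (RGC against EN), 15 to 6 (IPC against EN), 1 to 0 (RGC against IPC), 14 to 7 (G2M against G1 in RGCs), 11 to 4 (G2M against S), 11 to 1 (S against G1) and 13 to 7 (G2M against G1 in IPCs), and those called lower from 5 to 1, 5 to 1, 2 to 0, 1 to 0 and 1 to 0 in the first 5. In G1 cells alone the counts higher were 10 (RGC against EN), 7 (IPC against EN) and 4 (RGC against IPC). In CAG_mRFP cells alone 8 kinesins were lower in RGCs than in ENs, and 4 were higher and 12 lower in RGCs than in IPCs. In Hes5_GFP cells alone 2 were higher in RGCs than in IPCs; the counts lower were 2 for G2M against G1 in RGCs, 0 for G2M against S, 2 for S against G1 and 1 for G2M against G1 in IPCs. Per-cell means gave 3 higher in RGCs than in IPCs. G2M against S gave 0 lower with a filter of 20 CPM or a prior of 5 CPM. Without cells under 50000 counts, 2 were lower in G2M than in G1 RGCs. Leaving out 1 day gave 1 to 4 kinesins higher in RGCs than in IPCs (4 without day 3, 2 without day 4) and 1 to 4 lower in G2M than in G1 RGCs (2 without day 1, 4 without day 4).

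In the reporter test over all cells, where 0.399% of genes and 1 kinesin were called, DESeq2 called 11.1% of genes and 7 kinesins, and no filter 0.449% of genes. Without the replicate block for the shared day, 0.171% of genes were called, Kif21b among them. With the 2 plates that held both groups as units, 0% of genes and 0 kinesins were called. Leaving out 1 day gave 0% to 2.43% of genes and 0 to 6 kinesins, the highest without day 1 and 0 without day 2, 3 or 4. Within classes DESeq2 called 1.25% of genes in RGCs, 4.33% in IPCs, and 7.86% with 3 kinesins in ENs, and no filter 0.00613% (1 gene) in RGCs. Directions reversed for Kif1a (0.073) and Kif1bp (-0.26) between G1 RGCs and ENs, Kif26b between IPCs and ENs in Hes5_GFP cells (-0.80), and in the reporter test for Kif11 (-0.092) and Kif5b (-0.11) with plates, Kif11 in RGCs (-0.29 without day 3, -0.30 without day 4, against 1.31 without day 1), and Kif5b in IPCs (-0.023 with TMM factors, -0.030 with DESeq2). Where not set by fewer cells or genes, the cause was not tested. TMM factors moved the median of all genes by 0.14 (RGC against EN) and 0.19 (G2M against G1 in IPCs). All other recomputed counts stayed within 1.5 times. Leaving out a day could not be done in IPCs and ENs, with 2 days each.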
